A study of Mus musculus with 32 samples.

Results

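The R-loop map of wild-type (WT) mouse embryonic stem cells was described from 3 of the 32 samples of the series, the WT libraries made by MapR, chosen by their genotype and assay labels. The RNH libraries, replicate 1 and replicate 2, were made with GST-RH-MNase, a fusion of an RNase H protein with micrococcal nuclease, and their deposited lists held 22336 and 6612 peaks. The control was 1 library made with GST-MNase, the nuclease without the RNase H part, and its list held 568 peaks, so that 29516 peaks were described in all. The series as a whole set WT cells against H1-TKO cells, a line knocked out for linker histone H1, with several assays of chromatin and RNA, and its title names the turnover of chromatin-bound non-coding RNA. For each library, cells grown with serum and leukaemia inhibitory factor were bound to beads and exposed to the fusion protein at 1 uM, and fragments of 200 to 1000 bp were purified. No label names a deletion, transgene or drug in the WT cells. The MNase-only library of H1-TKO cells (582 peaks) was used once more as a second control map.

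An R-loop forms when RNA pairs with one strand of the DNA and leaves the other strand unpaired. RNase H binds such RNA-DNA hybrids and degrades their RNA, and the MapR fusion uses a form that binds without cutting RNA, so that the attached nuclease releases the DNA beside the hybrid. R-loops are known mainly from the starts of active genes in CpG islands, from genes of short non-coding RNAs, and from transcribed repeats such as telomeres. The nuclease alone cuts accessible DNA, and the peaks of the control library mark places where a peak arises without the RNase H part.

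The sequences below, from the GRCm38.p6 reference genome (mm10) and written 5′ to 3′ on the strand of the gene, show what lay under the RNH peaks that the control list did not hold. The first 4 are the 150 bp before the starts of protein-coding genes whose regions were among the highest in both replicates, at chr11:53891661-53891810, chrX:99975456-99975605, chr6:71632991-71633140 and chr2:73386573-73386722, with each CG pair in capitals. They contain 18, 12, 9 and 9 CG pairs and have GC contents of 78.7%, 75.3%, 58.0% and 71.3%. The fifth is the 100 bp before the start of Rn7sk, the 7SK small nuclear RNA, at chr9:78175634-78175733, with the letters TATAA in capitals and a GC content of 38.0%. These capitals are a match of letters near the end of the stretch that is farthest from the start. They were not tested as a TATA box of the gene.
Slc22a5: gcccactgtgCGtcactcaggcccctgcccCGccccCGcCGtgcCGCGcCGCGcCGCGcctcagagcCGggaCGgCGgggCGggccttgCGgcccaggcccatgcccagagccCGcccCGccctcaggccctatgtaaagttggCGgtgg
Eda: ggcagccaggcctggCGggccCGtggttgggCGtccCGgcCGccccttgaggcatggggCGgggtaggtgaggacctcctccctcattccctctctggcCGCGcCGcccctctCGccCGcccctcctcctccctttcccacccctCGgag
Kdm3a: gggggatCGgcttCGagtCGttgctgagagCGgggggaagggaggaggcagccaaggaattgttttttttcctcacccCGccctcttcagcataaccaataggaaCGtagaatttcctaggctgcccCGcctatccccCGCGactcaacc
Gpr155: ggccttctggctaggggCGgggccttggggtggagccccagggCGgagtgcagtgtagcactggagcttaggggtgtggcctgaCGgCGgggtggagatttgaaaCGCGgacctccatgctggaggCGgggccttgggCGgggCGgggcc
Rn7sk: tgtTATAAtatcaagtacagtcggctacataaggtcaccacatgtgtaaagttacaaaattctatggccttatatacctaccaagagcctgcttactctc

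Part of the RNH peaks, mostly intergenic (67.4% and 68.1%) or in introns (30.6% and 29.97%), were in tandem arrays. A word of 30 bases is given here for each of 3 unit lengths, again with CG in capitals. Each word was picked as the commonest among the peaks of its unit, in the replicate with more such peaks. A high share in that replicate therefore follows from the choice. The words were not counted in peaks of other units, so that they are examples and do not tell the units apart. The word of the 212-bp unit was present in 98.7% of the 1345 peaks of replicate 1 with that unit and in 98.2% of the 218 of replicate 2. The word of the 208-bp unit was present in 98.4% of 248 and 98.8% of 324 peaks, and that of the 201-bp unit in 85.7% of 70 and 88.4% of 43. The words occur 5773, 6448 and 2319 times in the genome.
212-bp unit: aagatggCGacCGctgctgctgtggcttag
208-bp unit: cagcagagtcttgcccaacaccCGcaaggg
201-bp unit: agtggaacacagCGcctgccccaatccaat

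The control peaks lay over other sequences, of which several kinds are shown. The 234-bp repeat is 1 unit of the tandem array at the start of chromosome 9 (chr9:3018374-3018607, TTTTC in capitals). The dispersed copy, from a control peak in the same family of sequences as that array (chr9:24542014-24542163), carries the same letters on the other strand, with GAAAA in capitals. Families 5 and 6 are groups of control peaks that align with each other and are nearly free of masked repeats (chr12:78350943-78351062 and chr8:15519877-15519996, CG in capitals). No gene name was matched to families 5 and 6.
234-bp repeat: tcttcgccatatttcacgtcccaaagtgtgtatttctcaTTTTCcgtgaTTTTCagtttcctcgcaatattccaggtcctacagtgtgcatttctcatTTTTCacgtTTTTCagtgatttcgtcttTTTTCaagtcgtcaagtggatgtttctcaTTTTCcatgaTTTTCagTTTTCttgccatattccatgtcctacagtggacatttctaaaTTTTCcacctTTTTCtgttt
Dispersed copy: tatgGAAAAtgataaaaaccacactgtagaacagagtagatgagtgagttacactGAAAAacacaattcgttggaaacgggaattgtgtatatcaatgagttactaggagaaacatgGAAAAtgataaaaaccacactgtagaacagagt
Family 5: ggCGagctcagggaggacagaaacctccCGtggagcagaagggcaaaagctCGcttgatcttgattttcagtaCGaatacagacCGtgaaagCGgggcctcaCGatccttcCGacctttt
Family 6: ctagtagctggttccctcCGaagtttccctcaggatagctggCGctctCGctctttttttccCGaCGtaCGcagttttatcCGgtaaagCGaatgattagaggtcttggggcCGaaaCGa

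The 3 lists differed in length and in the shape of their peaks. Replicate 1 listed 39.3 times and replicate 2 listed 11.6 times as many peaks as the control. The median peak was 470 bp wide in replicate 1, 306 bp in replicate 2 and 264.5 bp in the control, and the peaks covered 12.2, 2.39 and 0.199 Mb. The fold enrichment of a peak, the authors' value of its height over background, had a median of 3.74 in replicate 1, 4.34 in replicate 2 and 7.02 in the control, so that the control peaks were few, narrow and high. Of the peaks, 60.4%, 37.7% and 70.8% had a −log10 q of at least 5. The lists hold no reads and depth is unknown, so that the gap between the replicates cannot be told apart from a difference in depth. No label says whether the replicates were separate cultures, and a 2 against 1 exact permutation test of libraries cannot give a one-sided p below 0.33, which is the value found for peak number, promoter share, GC content and repeated sequence. The spread between the 2 RNH libraries is therefore given as the error throughout, and it may be technical. Because many cells were pooled in each library, an R-loop present in few cells and a weak one in many cannot be told apart.

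A peak was met by another list when the peaks shared at least 1 bp. Of the peaks of replicate 2, 4012 (60.7%) met a peak of replicate 1, and of the longer list of replicate 1, 3976 (17.8%) met a peak of replicate 2. Joined, they formed 3909 shared regions, of which 325 (8.31%) met a control peak. The remaining 3584 regions are called shared regions below and are the part of the map found in both replicates and not in the WT control. Regions that met a peak of the H1-TKO control were kept, and 3524 would remain without them. Only 1.49% of the peaks of replicate 1 and 5.43% of those of replicate 2 met a control peak, against 61.4% and 65.1% of the 568 control peaks that met replicate 1 and replicate 2.

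R-loop peaks lay at gene starts in WT cells far more often than control peaks did. The summit was within 1 kb of an annotated transcription start, here called a promoter, in 47.5% of the peaks of replicate 1, 38.8% of replicate 2 and 11.1% of the control. These windows make up 5.88% of the genome, so that promoters held 8.08, 6.59 and 1.89 times their share of bases. The mean of the RNH libraries was 43.1% ± 6.20 (SD, n = 2), which is 32.1 percentage points above the single control value. Both RNH libraries were above the control by more than the spread between them. Among shared regions, 2069 of 3584 (57.7%) had their summit at a promoter.

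Exons outside promoters held few peaks in every list, with 2.40% and 1.44% in the RNH libraries and 2.11% in the control, against 3.09% of the genome. Introns held 20.1% and 24.0% of the RNH peaks and 34.3% of control peaks, and intergenic sequence held 30.0%, 35.8% and 52.5%. The control peaks were thus spread over introns and intergenic sequence in nearly the genome's own proportions, which are 37.3% and 53.7%. Peaks of replicate 2 that met no peak of replicate 1 were also closer to the genome than the others, with 15.0% at promoters, whereas the unshared peaks of replicate 1 still had 46.1% there. Of the promoter peaks, 87.4% in replicate 1 and 85.2% in replicate 2 had a protein-coding gene as the nearest start.

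**Figure D1:**
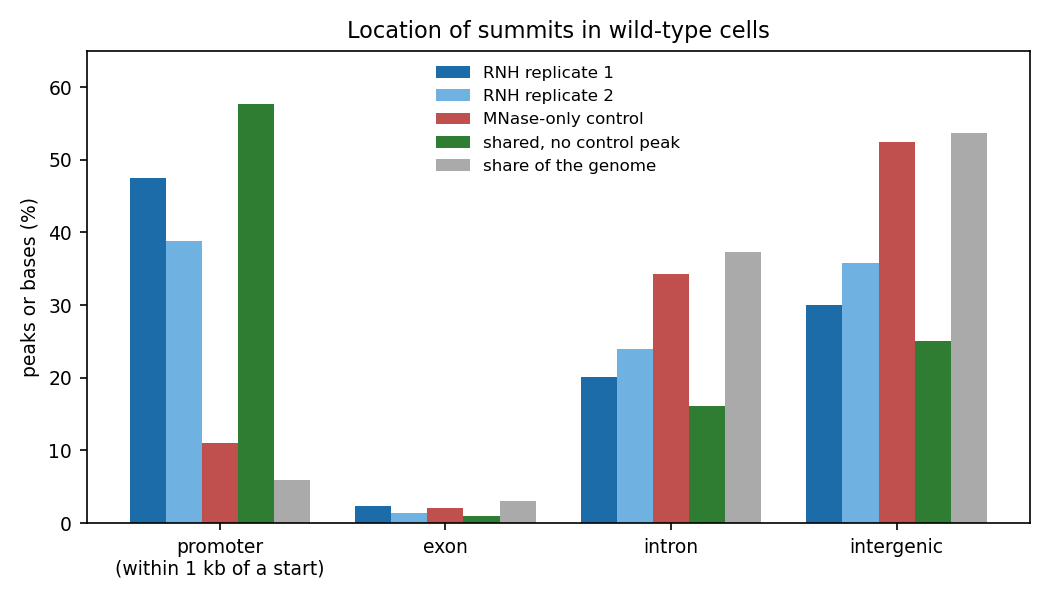
Share of peak summits (percent) at promoters, exons, introns and intergenic sequence in RNH replicate 1, RNH replicate 2, the MNase-only control and the 3584 shared regions, beside the share of genome bases. Bars for each library are single values, and the promoter bars of both RNH libraries (47.5% and 38.8%) stand above that of the control (11.1%).

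The promoter summits sat on the start itself and not on one side of it. In replicate 1 the median promoter summit was 15 bp downstream of the nearest start and 55.5% were downstream, and in replicate 2 the median was 12 bp upstream (-12 bp) and 46.5% were downstream. The replicates thus fell on opposite sides, and the mean of 51% ± 6.30 (SD, n = 2) gives no side. Of the RNH promoter summits, 76.1% and 70.8% were within 250 bp of the start. The 63 control summits that lay at promoters were more scattered, with 25.4% within 250 bp and a median position 259 bp downstream.

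**Figure D2:**
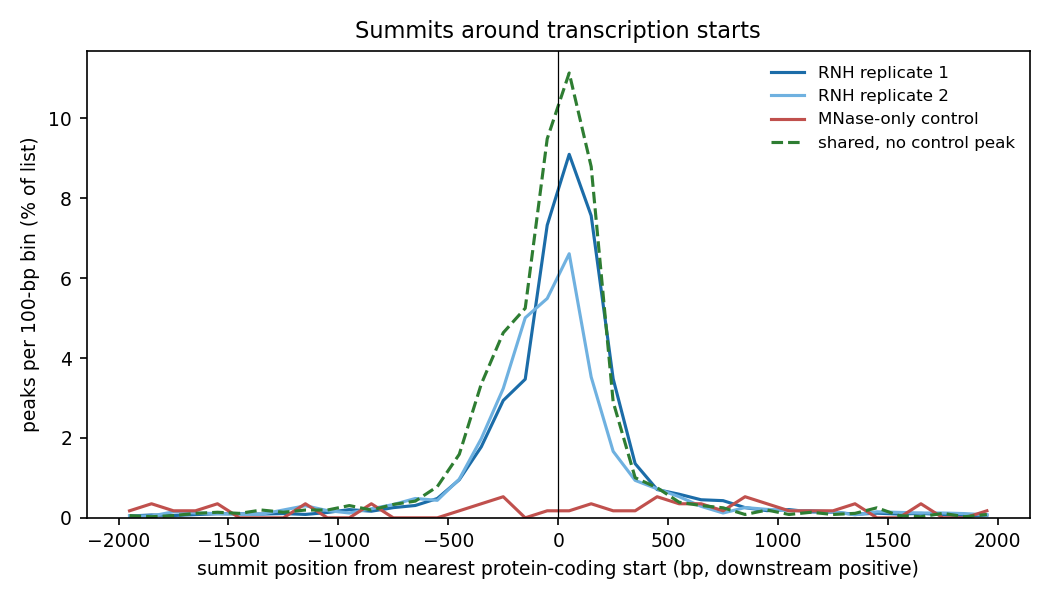
Peak summits per 100-bp bin, as percent of each list, against distance from the nearest protein-coding start (bp, downstream positive). The bin from 0 to 100 bp is the highest for both RNH lists (9.10% and 6.61%) and for shared regions (11.1%), while no bin of the control passes 0.528%.

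CpG-rich starts carried most of this signal. CpG islands are stretches of DNA in which CG pairs have been kept, and they hold the starts of most widely expressed genes. A start was counted as CpG-rich when the 501 bp around it had at least 55% GC and at least 0.6 of the CG pairs that its base composition predicts. Of 9843 CpG-rich coding starts, a peak of replicate 1 covered 69.6%, a peak of replicate 2 covered 17.9%, and a shared region covered 16.5%. At the 12010 other coding starts the shares were 17.8%, 3.57% and 3.12%. The control covered 4 CpG-rich starts (0.0406%) and 16 others. Among the coding starts under a shared region 81.3% were CpG-rich, against 45.0% of all coding starts.

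CpG-rich starts that face a start on the opposite strand, as in genes transcribed in both directions from 1 promoter, were covered more often than the rest. Shared regions covered 22.7% of 2198 paired starts and 14.7% of 7645 unpaired starts. The same order was seen in each library alone, with 78.2% against 67.2% in replicate 1 and 24.2% against 16.1% in replicate 2. GC content as such did not order the CpG-rich starts. In 5 groups from the lowest to the highest GC, a shared region covered 14.7%, 16.5%, 19.1%, 18.6% and 13.7%, so that the groups at both ends were the least covered.

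The excess of G over C on the strand of the gene, called GC skew, is known to favour R-loops because the G-rich RNA pairs tightly with its C-rich template. In the 500 bp downstream of CpG-rich starts, the mean of (G − C)/(G + C) was 7.38% at the 1626 starts with a shared region, 5.33% at the 5165 with a peak of replicate 1 alone and 3.92% at the 2903 with no RNH peak. In the 500 bp upstream the order was turned, with -2.43%, -1.63% and -0.79%. GC content downstream was nearly the same in the 3 groups, at 66.4%, 66.2% and 66.7%. Upstream, GC content was 59.4% at starts with a shared region, 57.3% with replicate 1 alone and 57.4% with no peak. These are descriptions of starts, which share libraries and are not replicates.

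**Figure D3:**
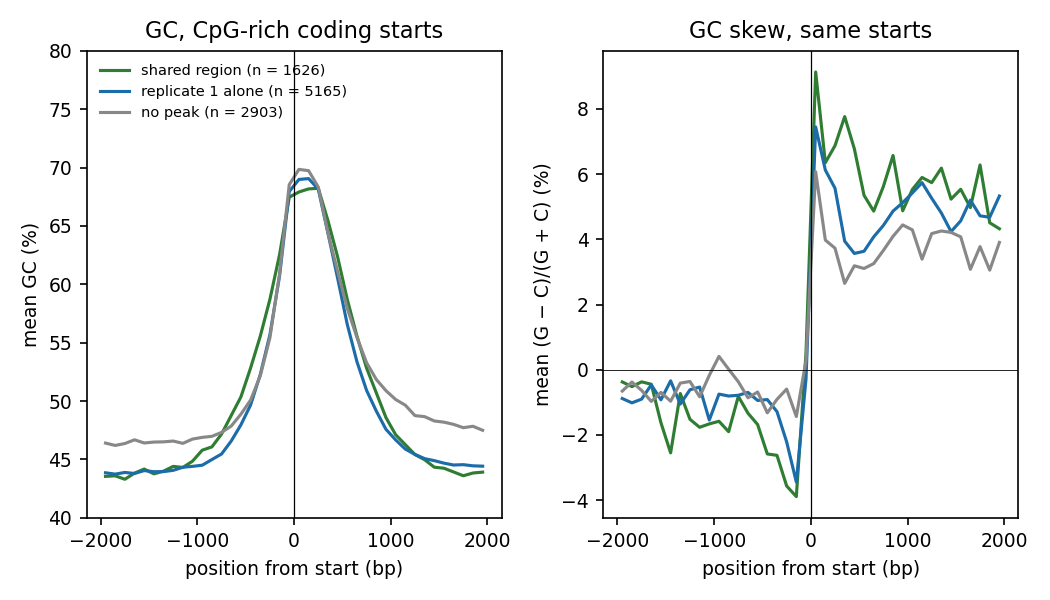
Mean GC content (left, percent) and mean GC skew (right, percent of G plus C) in 100-bp bins from 2 kb upstream to 2 kb downstream of CpG-rich coding starts, for starts with a shared region, with a peak of replicate 1 alone and with no RNH peak. Downstream of the start the skew of starts with a shared region is the highest of the 3 groups in the first 500 bp (7.38% against 5.33% and 3.92%), while the GC curves nearly coincide there.

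Short motifs were counted on both strands in the RefSeq promoter windows of 16515 genes, which run from 250 bp before to 50 bp after the start (GRCm38.p6). Among CpG-rich windows, the CCAAT box (letters CCAAT), the binding site of NF-Y, was present in 49.9% of the 1165 with a shared region and in 26.3% of the 2399 with no RNH peak, against 38.7% of all windows. The NRF1 core GCGCATGCG was present in 5.92% and 2.96%, against 2.51% of all windows. The GC box GGGCGG, the site of SP-family factors, was present in 83.9% and 76.5%, against 48.0% of all windows. Other letters hardly differed between the 2 kinds of CpG-rich window. The ETS site CCGGAAG was found in 17.0% and 16.9% (12.3% of all windows), the TATA box TATAAA in 4.03% and 4.04% (12.9%), the cyclic-AMP element TGACGTCA in 3.86% and 3.04% (2.43%) and the E box CACGTG in 11.8% and 11.3% (8.11%). The 7083 CpG-rich windows as a whole, those with other peaks included, held the CCAAT box in 36.2%, the NRF1 core in 4.26% and the GC box in 79.8%. They held the ETS site in 19.8%, above both of the groups compared. No 2 of these motifs contain each other's letters, and a match is not a bound site.

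The promoter regions of highest fold belonged to genes of many kinds. The 20 promoter regions with the highest smaller value of the 2 replicates were listed after the data had been seen. They were taken from the shared regions, which by definition meet no control peak. Their fold enrichment was 5.82 to 7.41 in replicate 1 and 5.82 to 7.95 in replicate 2. Their GC content was 56.3% to 73.7%, 19 of the 20 had a single-copy summit, and 18 of the 20 summits were within 250 bp of the start. Slc22a5, the carnitine transporter whose upstream sequence is shown above, had fold enrichments of 6.49 and 6.61 in a region of 1151 bp (chr11:53891150-53892300). Efl1, a GTPase of ribosome maturation, had 6.52 and 6.36 (chr7:82648314-82648936), and Snx12, a sorting nexin of endosomes, had 7.41 and 6.35 (chrX:101221971-101222878). These 3 were the promoters among the 15 highest shared regions of any location.

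The next promoters in order were those of Syt14, a synaptotagmin-like membrane protein (6.73 and 6.23), Mfsd8, a lysosomal transporter (6.21 and 6.78), Cycs, cytochrome c of the respiratory chain (6.20 and 7.07), and Stxbp5l, a regulator of vesicle fusion (7.40 and 6.19). Eda, the ectodysplasin ligand, had 6.40 and 6.03, Kdm3a, a histone demethylase, had 6.97 and 6.02, and Gpr155 had 6.33 and 5.95. The upstream sequences of these 3 are printed above. Of the 20 promoters, 5 were on chromosome X, among them Snx12, Eda, the ubiquitin ligase scaffold Cul4b and the nucleolar GTPase Gnl3l, whereas 2.54% of all shared regions were on that chromosome.

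Gene groups were read against the share of all genes whose start, with 1 kb on both sides, met a region. Of 55413 annotated genes, 5.04% met a shared region, 22.4% a peak of replicate 1, 5.88% a peak of replicate 2 and 0.139% a control peak. Of 21938 protein-coding genes the shares were 10.2%, 45.1%, 11.5% and 0.141%. The counts below are descriptions, since the lists were drawn up with earlier results known, and neighbouring genes can share a region.

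Core histone genes, which encode the nucleosome proteins and stand in clusters, met a peak of replicate 1 in 54 of 61 cases and a shared region in 15 (24.6%). Regions here often covered a pair of divergent genes. Hist1h2ak and Hist1h2bn shared a region with fold enrichments of 4.92 and 4.04, Hist1h4h had 4.24 and 4.35, and Hist1h4b had 3.77 and 4.41. The region over Hist2h2aa2 and Hist2h3c2 was among the 5 widest of the map at 1994 bp (3.43 and 4.29). Of 9 linker histone H1 genes 1 met a shared region, Hist1h1c (4.18 and 4.41), and 5 met a peak of replicate 1, among them Hist1h1a at 2.74 and Hist1h1e at 3.85.

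Genes for parts of the translation and RNA machinery were divided. Ribosomal protein genes met a shared region in 10 of 82 cases (12.2%), near the share of all coding genes, with Rpl10 at 4.56 and 5.57, Rpl18 at 4.72 and 4.43 and Rpl21 at 4.02 and 4.63. Rps29 met a region of 5.76 and 12.6 that it shares with the RNA gene Rn7s1. Of 30 housekeeping genes 11 (36.7%) met a shared region, with the respiratory chain subunit Sdha at 5.72 and 4.62, the glycolytic enzyme Pgk1 at 4.47 and 5.28, the adaptor protein Ywhaz at 3.82 and 5.23 and the RNA-binding protein Hnrnpa2b1 at 3.66 and 4.98. Of 24 snoRNA host genes 2 did so, Snhg18 (4.15 and 4.08) and Gas5 (2.45 and 4.09), and 12 met a peak of replicate 1.

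Of the 36 pluripotency genes, 6 (16.7%) met a shared region and 22 (61.1%) a peak of replicate 1. Stat3, the transcription factor that carries the signal of leukaemia inhibitory factor, had 4.10 and 4.86. Rif1, a telomere and replication timing protein, had 3.43 and 4.19, and Gdf3, a TGF-beta family ligand, had 2.92 and 3.79. The RNA-binding protein Lin28a had 2.80 and 4.67, and the transcription factors Klf2 and Klf5 had 2.68 and 3.83, and 2.59 and 2.76. Except for Stat3, the replicate 1 values were below the median of shared regions, which was 4.05 in replicate 1 and 4.38 in replicate 2. The core factors Pou5f1 and Sox2 met a peak of replicate 1 only, at 2.26 and 3.40, as did Esrrb at 2.53 and Zfp42 at 4.47. Nanog, another core factor among the 36, met no peak of any library.

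Markers of other lineages were at or below the share of all coding genes for shared regions in most lists. Of endoderm markers 1 of 15 met one (Sox17, 3.47 and 4.11), of mesoderm markers 0 of 13, of neuroectoderm markers 1 of 13 (Neurog2, 3.60 and 4.87), and of fibroblast markers 2 of 13, namely Vim, an intermediate filament protein, at 4.46 and 4.99 and the matrix protein Fn1 at 3.28 and 4.71. For peaks of replicate 1 the shares were 46.7%, 23.1%, 53.8% and 46.2% in these 4 lists, beside 45.1% of all coding genes. Developmental transcription factor families met a shared region in 3 of 101 cases, at Hoxd11 (3.58 and 4.12), Hoxc13 (3.32 and 4.65) and Pax5 (3.21 and 3.98). Germline genes, of which 52% met a peak of replicate 1, did so in 2 of 25 cases, at Meioc (3.99 and 4.99) and Stra8 (3.41 and 3.37), and genes of the 2-cell stage in 1 of 16, at Duxf3 (2.98 and 3.56). A peak at a promoter is not a measure of expression, so that these counts do not check the cell type.

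None of the 1418 olfactory and vomeronasal receptor genes met a shared region at its start, and 4 met a peak of replicate 1. Zinc finger genes named Zfp met a shared region in 45 of 365 cases (12.3%) and a peak of replicate 1 in 233 (63.8%), with Zfp868 the highest at 7.42 and 5.79, followed by Zfp91 (5.32 and 5.10), Zfp438 (5.36 and 4.99) and Zfp511 (6.24 and 4.94). Among imprinted genes 4 of 32 met a shared region. Ube3a, a ubiquitin ligase of the Prader-Willi and Angelman region, had 7.03 and 4.04, Cdkn1c, an inhibitor of cell division, had 4.17 and 3.70, the long transcript Snhg14 had 3.12 and 4.22, and Zrsr1 had 3.07 and 4.01. Of 23 nuclear long non-coding RNA genes, Tug1 alone met a shared region (4.36 and 4.93).

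Some genes that act on R-loops and on nuclear RNA met a shared region. Of 27 R-loop processing genes 6 (22.2%) met a shared region, among them the splicing factors Srsf1 (4.44 and 4.40) and Srsf2 (4.07 and 4.03), the helicase gene Ddx5 (3.66 and 7.38), the exonuclease Xrn2 (3.98 and 3.58) and Fanca of the Fanconi anaemia pathway (3.50 and 6.34). Of 21 m6A pathway genes 20 met a peak of replicate 1 and 4 a shared region, namely Igf2bp2 (3.67 and 4.25), the reader Ythdf2 (3.55 and 3.65), Hnrnpa2b1 and Hnrnpc (3.34 and 5.34). Of 23 nuclear RNA decay genes 4 met a shared region, among them the exosome subunit Exosc3 (5.04 and 5.71), Zfc3h1 (4.66 and 6.34) and the poly(A)-binding protein Pabpn1 (3.99 and 5.81).

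Genes induced by stimuli were covered to different extents. Of 19 immediate early genes 7 (36.8%) met a shared region, with the phosphatase Dusp1 at 3.84 and 4.68, the transcription factors Jund at 3.62 and 3.63 and Klf10 at 3.62 and 4.09, and Egr1 at 3.47 and 6.16. Of 18 p53 targets 3 (16.7%) did so, at Sesn1 (5.09 and 6.06), Sesn2 (2.98 and 3.40) and the cell cycle inhibitor Cdkn1a (2.71 and 3.66). In all, 137 of the 2394 distinct genes in the lists met a shared region, and 1 met a control peak at its start.

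Genes of short structured RNAs had fold enrichments among the highest of the lists. Of 27 such genes 10 (37.0%) met a shared region and 18 a peak of replicate 1. Rn7sk, whose RNA holds back the elongation factor P-TEFb, had 5.80 in replicate 1 and 8.14 in replicate 2 (chr9:78175332-78176229). Rn7s1, a 7SL RNA of the signal recognition particle, had 5.76 and 12.6 (chr12:69158679-69159588), and Rpph1, the RNA of RNase P, had 5.49 and 9.55 (chr14:50807450-50807954). Rmrp, the RNA of RNase MRP, had 5.14 and 5.69 (chr4:43492606-43493735). In all 4 the value of replicate 2 was above that of replicate 1. The second 7SL gene, Rn7s2, had 6.51 and 9.34 but also a control peak of 6.45, and it was the only list member with a control peak at its start. Inside the gene bodies of the endoderm markers Dab2 and Lama1 there were control peaks of 8.04 and 22.4, with RNH values of 4.61 and 7.07, and of 11.3 and 17.2.

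In the RefSeq annotation of small RNAs, with 250 bp on both sides, named genes of spliceosomal and processing RNAs were often covered. All 3 U1b genes (Rnu1b1, Rnu1b2 and Rnu1b6), all 4 U3b genes (Rnu3b1 to Rnu3b4) and the U2 gene Rnu2-10 met a shared region, whereas 24 of 989 small nuclear RNA entries without an Rnu name did, Rn7sk among them, and the single entries of U1a, U3a, U5g, U6, U7, U11 and U12 met none. Rnu1b1 had 4.95 and 4.69, Rnu1b2 had 4.81 and 4.43, Rnu2-10 had 4.56 and 4.91 and Rnu3b1 had 4.25 and 4.15. Near-identical copies of these genes share reads, and how such reads were placed is not given in the sources used here. Transfer RNA genes met a shared region in 25 of 408 cases (6.13%), a peak of replicate 1 in 103 (25.2%), a peak of replicate 2 in 24 (5.88%) and a control peak in 0. These shares were near those of all annotated genes, which were 5.04%, 22.4% and 5.88% with 1 kb on both sides of the start. The share of all genes was not computed for the windows of 250 bp used here. Shared regions met 10 of 1228 microRNA and 1 of 1340 snoRNA entries.

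At promoters and elsewhere the sequence under RNH summits differed from that under control summits. Mean GC content in the 300 bp around the summit was 59.9% in replicate 1, 56.9% in replicate 2 and 46.6% in the control, with 41.7% in the genome. The RNH mean of 58.4% ± 2.11 (SD, n = 2) was 11.8 percentage points above the control. Away from promoters the summits still had 55.5% and 53.2% GC, against 46.7% in the control. Masked repeats took up 28.9%, 39.5% and 54.1% of the summit windows. The share of summits in sequence present at least 2 times in the genome, by the median count of 31-base words over 200 bp, was 24.4%, 35.1% and 54.9%. At promoters 4.58% and 6.71% of RNH summits were in such multi-copy sequence, so that the repeated part of the RNH map lay away from promoters (42.3% and 53.1%). Control summits were multi-copy in 58.7% of cases at promoters and in 54.5% away from them. Away from promoters replicate 2 was therefore close to the control in this share, and replicate 1 was below it. The excess of GC was local, since 5 kb from the summits the GC content was 43.8%, 43.1% and 41.5% in the 3 lists.

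Runs of G that can fold into a G-quadruplex, searched on either strand as 4 runs of at least 3 G with 1 to 7 bases between them, were read beside these values. At promoters 28.5% and 33.01% of RNH summit windows held such a pattern, against 15.9% of the 63 control windows. Away from promoters the order was turned, with 10.9% and 14.7% in the RNH lists and 30.9% in the control. The telomeric hexamer described below fits the same pattern of letters.

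One kind of array made up much of that repeated part. Peaks in tandem arrays with a unit of 190 to 220 bp numbered 2184 (9.78%) in replicate 1, 634 (9.59%) in replicate 2 and 2 (0.352%) in the control, where such arrays make up 0.0878% of 500-bp genome tiles. Among shared regions there were 403 (11.2%). Units of 212 bp were the commonest in replicate 1, with 1345 peaks (6.02% of the list) against 218 (3.30%) in replicate 2, while units of 208 bp had 248 (1.11%) and 324 (4.90%). Units of 214, 206 and 204 bp had 193, 101 and 88 peaks in replicate 1 and 1, 4 and 3 in replicate 2. The replicates therefore differed in which unit they favoured, also as a share of each list. As background, tandem monomers of about this length form the promoters of young mouse L1 retrotransposons, but no L1 reference sequence was matched here.

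Of 3642 arrays of this kind in the genome, 1920 (52.7%) met a peak of replicate 1, 615 (16.9%) a peak of replicate 2, 408 (11.2%) both and 2 the control. The array peaks had a mean GC content of 65.5% in replicate 1, a median of 2179 genomic copies of their words and a median fold enrichment of 4.61 and 4.38 in the 2 replicates. They were intergenic in 67.4% and 68.1% of cases and intronic in 30.6% and 29.97%. Of the array peaks of replicate 2, 64.5% met a peak of replicate 1, and of those of replicate 1, 18.8% met a peak of replicate 2, near the shares for all peaks. Reads from such arrays fit many places, so that the count of arrays depends on how the authors placed them.

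Single regions away from promoters reached the highest fold of the map. Of the 15 shared regions with the highest smaller value, 3 were promoters, 9 were in multi-copy sequence and 12 had at least 60% masked bases. The highest was intergenic on chromosome X (chrX:116932183-116932648, 10.2 and 10.4), followed by an intergenic region upstream of the interleukin receptor gene Il1rapl2 (chrX:137544648-137545129, 11.3 and 9.43). A region 47278 bp from the start of Cd200 on chromosome 16 had 8.42 and 9.13 with a single-copy summit, and regions on chromosomes 1 (near Serpinb3d, 11.3 and 8.08) and 8 (in an intron of Gm45459, 9.69 and 8.08) came next. Introns of Efna5, an axon guidance ligand (7.19 and 8.73), of the transporter gene Slc22a27 (10.3 and 7.03), and of Stau2, an RNA-binding protein (6.40 and 11.3), also belonged to this group. Other members were intergenic regions on chromosomes 11 (7.09 and 8.77), 14 (7.75 and 6.81) and 15 (7.58 and 6.60). The region in Efna5 contained telomeric hexamers although no control peak was called there.

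Exons outside promoters gave 37 of the 3584 shared regions. The exonic region of Prdm9, the meiotic zinc finger protein whose finger array is encoded by repeated units, covered 840 bp with fold enrichments of 5.03 and 6.64 (chr17:15544028-15544867). Its summit window was a tandem repeat of 84 bp, the length of 1 zinc finger unit in DNA. Other exonic regions were in Pigt, a subunit of the GPI transamidase (4.45 and 4.86), in Tekt5 of the sperm flagellum (4.72 and 4.49) and in the non-coding genes Gm37194 (5.68 and 5.27) and E030044B06Rik (6.39 and 4.39). The widest shared regions were 2378 and 2353 bp long near the end of chromosome Y (2.45 and 4.40, and 2.08 and 2.42), followed by a 212-bp array in an intron of March1 (2036 bp, 4.70 and 3.81), the Hist2h2aa2 region and a 54-bp tandem repeat in an intron of Stam2 (1975 bp, 3.39 and 4.37).

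The highest peaks of the RNH lists were, however, the peaks they had in common with the control. Of the 100 peaks of highest fold, 98% in replicate 1 and 100% in replicate 2 met a control peak, and 6% and 8% were at promoters. Among ranks 101 to 300 the share that met the control was 41.5% and 68.5%, and among ranks 301 to 1000 it was 4.86% and 6.43%. Promoters took over as the control peaks gave out, with 35.9% and 47.6% in ranks 301 to 1000. In replicate 1 the arrays of 190 to 220 bp made up 37% of that same rank group, against 6.86% in replicate 2. A list of RNH peaks read from the top thus begins with peaks that the nuclease alone also gave.

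**Figure D4:**
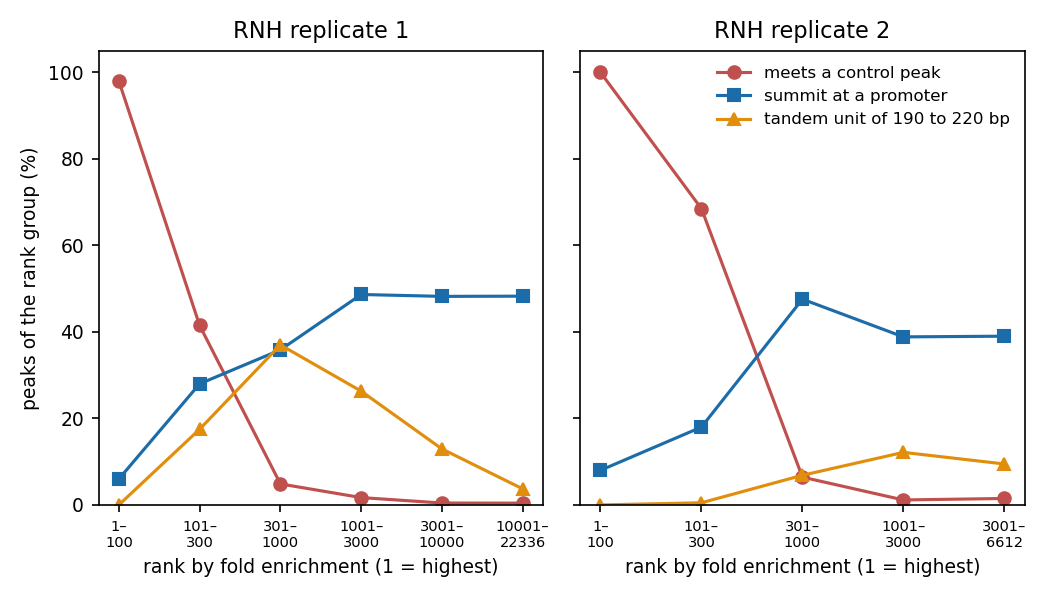
Share of peaks (percent) in groups of rank by fold enrichment, rank 1 being the highest, for RNH replicate 1 and replicate 2: peaks that meet a control peak, peaks with the summit at a promoter and peaks in tandem arrays of 190 to 220 bp. The control share falls from 98% and 100% in the first 100 ranks to 4.86% and 6.43% in ranks 301 to 1000.

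The control peaks had nearly the same order of heights in all libraries, which the R-loop regions did not. Over 337 control peaks met by both replicates, Spearman's rho of fold enrichment was 0.85 between the control and replicate 1 and 0.91 between the control and replicate 2. Over the 325 shared regions with a control peak, rho between the replicates was 0.93, and over the 3584 without one it was 0.37. These are correlations across peaks, which are not independent replicates, and the range of fold is wider in the first set. The fold enrichment was higher in the control than in replicate 1 at 286 of the 337 (84.9%), with a median ratio of 1.47, and higher than in replicate 2 at 243 (72.1%), with a median ratio of 1.16.

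**Figure D5:**
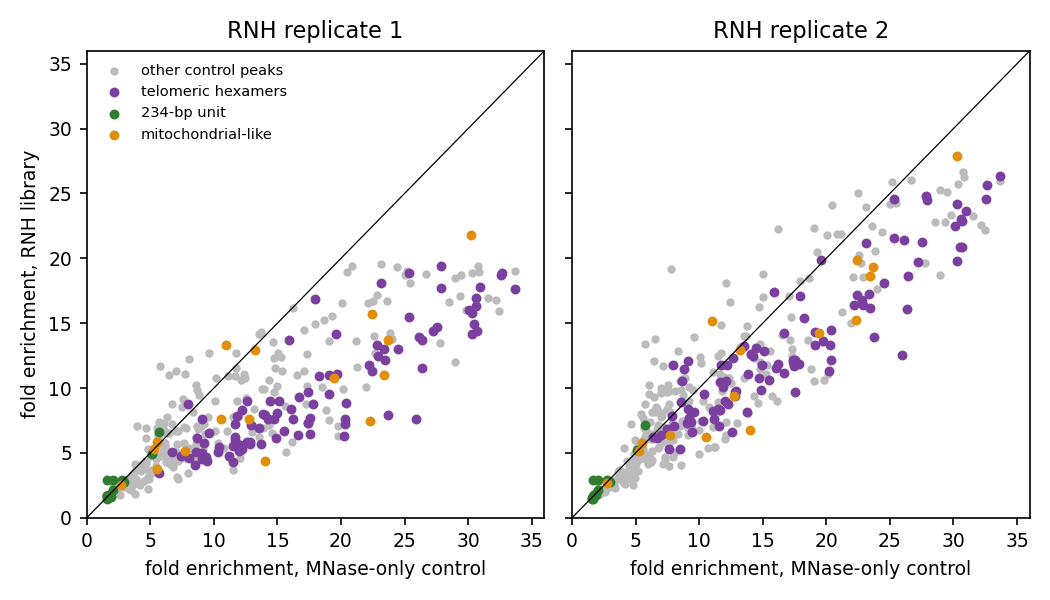
Fold enrichment in the MNase-only control (horizontal) against the overlapping peak of RNH replicate 1 (left) and replicate 2 (right), 1 point per control peak, with the line of equality. Points with telomeric hexamers, the 234-bp unit or mitochondrial-like sequence are coloured. Most of the points are below the line, and those of the 234-bp unit lie near the origin (median 1.72 in the control).

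The control peaks fell into a small number of sequence families. When the 301 bp around each summit were aligned with each other (at least 75% identity over 100 bases), 324 of the 568 (57%) fell into 15 families of 5 or more, 371 (65.3%) had at least 1 partner and 197 had none. Of the 50 control peaks of highest fold, 48 were in families, and all 50 met an RNH peak and a peak of the H1-TKO control. These families, like the repeat classes, were defined after the data had been seen.

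Telomeric hexamers, TTAGGG or its complement, marked the largest family. Of the control peaks 102 (18.0%) had at least 10 hexamers in 500 bp, a density found in 0.00653% of genome tiles, and their median fold enrichment was 15.7. All but a few were also RNH peaks: 95 met replicate 1, 100 met replicate 2 and 97 met the H1-TKO control. Their median values in the RNH libraries were 7.91 and 12.1. Most were inside chromosomes, since 18 of the 102 were within 500 kb of the end. The examples of highest fold were on chromosome X (chrX:170880914-170881353) with 33.6 in the control, 17.6 in replicate 1 and 26.4 in replicate 2, and on chromosome 12 (chr12:120028599-120029113) with 32.6, 18.7 and 24.6.

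A 234-bp tandem unit marked family 3, with 44 peaks on 12 chromosomes. The unit has the length of the mouse major satellite, the repeat beside centromeres, as background knowledge. In the first 10 Mb of chromosome 9 the control had 21 peaks, all between 3000049 and 3259044, and 17 of them had the unit. Peaks with the unit were low, with a median fold of 1.72 and a median width of 336 bp over the 19 in the list, and the peak at Gm10722 was 1481 bp wide (2.79 in the control, 2.93 and 2.95 in the RNH libraries). Dispersed peaks of the same family were among the highest of all. One in an intron of Chl1, a neural adhesion gene, had the top value of 33.7 in the control, with 19 and 26 in the RNH libraries (chr6:103648966-103649407), and the single-copy peak whose sequence is shown above had 32.5, 15.9 and 22.2 (chr9:24541926-24542263).

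Family 2 had 57 peaks on 20 chromosomes, which were masked repeats over 98.5% of their windows, with a median fold of 6.82, and 27 of them met replicate 2. Family 4 had 33 peaks, with a median of 6.20. Families 5 and 6, with 14 peaks each, were high (medians of 20.2 and 17.6) and hardly masked (8.29% and 4.76%), and every peak of family 5 met both RNH libraries and the H1-TKO control. Family 5 included peaks in an exon of Lars2, the mitochondrial leucyl-tRNA synthetase (30.9, 18.9 and 26.3), and in introns of Gphn, a synaptic scaffold (30.8, 19.4 and 26.6), and Cntnap5b (30.3, 18.9 and 25.7).

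Copies of mitochondrial DNA in the nuclear genome gave 17 control peaks, of which 16 met an RNH peak. The highest was on chromosome 12 (chr12:97061430-97061832), where the control had 30.2 and the RNH libraries had 21.8 and 27.9, the top values of both RNH lists. The widest control peak, at 5147 bp, was over the ribosomal RNA locus of chromosome 17 (chr17:39843106-39848252), at 2.22 in the control and 1.94 and 1.87 in the RNH libraries. It is 1 of 4 peaks that aligned with 18S or 5S ribosomal RNA genes of the assembly. Other ribosomal RNA, 28S included, was not searched, so that the count covers only these genes and may be too low. The hardly masked families described above were not compared with 28S sequence.

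The other top control peaks were telomeric repeats on chromosomes X (32.7), 3 (31), 10 (30.7), 13 (30.7), 19 (30.6) and 1 (30.5), a peak in an intron of 2210408I21Rik on chromosome 13 (32.2) and a single-copy peak upstream of Pak3 (31.6). All 15 of highest fold met both RNH libraries, where the values were lower in each case, and met the H1-TKO control.

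Control peaks that the RNH libraries lacked were of another sort. The 186 unmet peaks had a median width of 188 bp, the narrowest width in the list, and a median fold of 5.65, against 318 bp and 9.96 for the 382 that were met by either replicate. Of the unmet peaks 31.2% had a −log10 q of at least 5, against 90.1% of the met. The H1-TKO control held 334 of the 382 met peaks (87.4%) and 16 of the 186 unmet (8.60%). Mean GC content was close in the unmet and met peaks, at 46.9% and 46.5%, and summits were multi-copy in 46.2% and 59.2%. The kinds of sequence differed more. At least 10 telomeric hexamers were found in 1 of the 186 unmet and in 101 of the 382 met peaks, and the 234-bp unit in 1 and 18. Single-copy peaks of no repeat class made up 52.7% of the unmet and 20.7% of the met, and other multi-copy peaks 36.02% and 25.9%. The G-quadruplex pattern was present in 13.98% and 36.6% of their summit windows. Of the 382 met peaks, 337 met both replicates.

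Few coding promoters had a control peak. Of the 31 protein-coding genes with one, several belonged to the array on chromosome 9, such as Gm10722 and Gm10717. Among the others were Sned1, a matrix protein (19.8 in the control, 6.33 and 10.6 in the RNH libraries), and Phf21a, a reader of unmethylated histone H3 (10.3, 5.09 and 7.49, with 24 telomeric hexamers), both named after their values were seen.

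Along the chromosomes the RNH peaks were densest on chromosome 11, with 12 peaks per Mb in replicate 1 and 3.28 in replicate 2, where coding genes are also dense (13.4 per Mb). Chromosome 7 had more coding genes per Mb (13.9) but fewer peaks, at 9.90 and 2.96 per Mb, so that the 2 densities did not run strictly together. RNH peaks were sparse on chromosome X (3.69 and 1.19 per Mb) and on chromosome Y (0.556 and 0.392). The control had 0.111 peaks per Mb on X and 0.185 on Y, against 0.345 on chromosome 9. In 10-Mb bins the median was 75.5 peaks in replicate 1 and 20 in replicate 2.

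One stretch stood out by its density of RNH peaks. It was chromosome 14 from 92 to 102 Mb, the run of 1-Mb bins with at least 10 peaks of replicate 2, defined after the data had been seen. The stretch held 272 peaks of replicate 1 (27.2 per Mb against 8.13 elsewhere) and 190 of replicate 2 (19 against 2.36). The WT control had 3 peaks there (0.3 per Mb against 0.208 elsewhere) and the H1-TKO control had 0 (0.214 per Mb elsewhere). Control counts this small cannot show whether the controls share the excess. The bin from 90 to 100 Mb has 11 coding genes, where the median bin has 59. The peaks here were rarely at promoters (7.35% and 3.68%), had less GC than elsewhere (49.5% and 48.7%, against 60.03% and 57.2%) and were lower (median fold of 2.91 and 3.35, against 3.75 and 4.36). The stretch gave 74 shared regions, among them that of Klf5. By 1-Mb bin, replicate 1 had 10 peaks in the Mb before the stretch, 26 and 11 in its first 2 Mb, at most 41 between 95 and 96 Mb, 19 and 15 in its last 2 Mb and 4 in the Mb after it. The copy number of this stretch in these cells was not tested, since peak lists hold no read depth.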

How the data were processed

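MapR libraries of WT mouse embryonic stem cells were analysed from peak lists, 1 per library, which the authors deposited; BWA, MACS2 and mm10 are named in the submitters' processing notes, without versions, options or background library. Per the file layout, the lists give for each peak a fold enrichment (a ratio, as deposited), −log10 p and −log10 q values deposited by the authors, a score deposited by the authors that was 10 times the −log10 q, rounded down, in at least 99.9% of peaks, and a summit. No reads were given, so depth is unknown and no counting interval is stated for single peaks.

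Samples were grouped by genotype and treatment labels. Peaks were overlapped by at least 1 bp, and joined peaks of both RNH libraries made a shared region. Summits were placed in the order promoter (1000 bp on both sides of any GENCODE M21 start), exon, intron, intergenic. Sequence came from GRCm38.p6: GC over 300 bp, copy number as the median genomic count of 31-base words over 200 bp (2 or more is multi-copy), tandem repeats as a share of at least 70% of bases equal to the base 1 unit away over 500 bp (units up to 240 bp), and families by BLAST+ 2.17.0. Python 3.11.15, NumPy 2.4.6, pandas 2.3.3 and SciPy 1.17.1 were used. The overlap, shared region and nearest-start steps were tested on simulated data, and the 31-base words only for being the same on both strands. Copy counts and repeat classes were not tested in this way. Libraries were compared by an exact permutation test (one-sided), and all other values are descriptions.

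The libraries, gene lists and comparisons were chosen with earlier results of these data known. Named are the 15 shared regions of highest smaller fold, 5 each of exons, introns and intergenic sequence, the 5 widest, the 15 highest control peaks, up to 4 members per list, all pluripotency members with a shared region and list members with a control peak; the top promoters, repeat classes, families and the chromosome 14 stretch were added after the data had been seen. Some genes and 1 sequence that belong to the sets described are not reported here.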

Additional observations from a re-analysis of the deposited data

How the results depend on the processing

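No paired analysis was possible because the single control library carries no replicate number, so the groups compared share none. Of 55 recomputed values, 43 were counted as unchanged. The limit was the spread between the RNH libraries, a factor of 1.5 for counts of regions and genes, or, for replicate agreement, its binomial interval. Leaving out 1 of 2 replicates always moves their mean by less than the spread between them, so that those values could not count as moved. Restriction to chromosomes 1 to 19, X and Y left the peak ratio and the promoter difference as they were. The count of 43 is therefore no measure of stability. With peaks of −log10 q of at least 5, the promoter difference was 38.3 percentage points (32.1 with all peaks) and 81.2% of control peaks were met (63.3%). At that limit 68.2% of replicate 2 peaks met replicate 1 (60.7%, 95% binomial interval 59.5% to 61.9%) and 1384 shared regions remained in number (3584). The interval treats the peaks of 1 pair of libraries as independent and does not measure the spread between libraries. With lists of equal length, the GC difference was 8.29 points (11.8), the log2 width ratio 1.08 (0.52) and the share of control peaks met 47.5%. Single-copy summits, added after the data had been seen, gave a promoter difference of 47.7. A minimum of 5 copies gave a difference in repeated sequence of 17.2 (25.2), an overlap of 50% of the smaller peak gave 57.1% of replicate 2 peaks met, and replicate 1 shortened to the length of replicate 2 gave 35.9%. A peak of replicate 1, with no need of replicate 2, met 560 of the distinct genes in the lists (137 for shared regions). Without either replicate the peak ratio was 11.6 (without replicate 1) to 39.3 (without replicate 2), against a mean of 25.5. The log2 width ratio was 0.21 (without replicate 1) to 0.83 (without replicate 2). The promoter difference was 27.7 to 36.4, the downstream share 46.5% to 55.5%, the GC difference 10.3 to 13.3, the difference in repeated sequence 19.8 to 30.5 and the share of control peaks met 61.4% to 65.1%. The downstream share thus crossed the middle with the replicate used. The causes were not tested. The main limits are the single control, unknown depth, unknown placement of reads from repeats, and replicate lists whose lengths differ.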
